A study of Mus musculus with 12 samples.

Results

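The genes described here are the mouse NF-kappaB subunits Nfkb1, Nfkb2, Rel, Rela and Relb and 5 inhibitors of the pathway, Nfkbia, Nfkbib, Nfkbid, Nfkbie and Tnfaip3. They were chosen by name, with earlier results of these data known, and are 10 of the 55401 gene identifiers in each table of counts. All 10 were among the 16426 genes that passed the filter on low counts, and each had at least 129 counts in every library. Bulk RNA-seq libraries of OT-I CD8 T cells, 3 in each of 4 groups, were compared. The OT-I transgene, which all 4 groups share, is a T cell receptor that recognises an ovalbumin peptide. Day 14 and day 4 cells were CD44+ OT-I cells sorted from B78ChOVA tumours of C57BL/6J mice, 14 or 4 days after transfer, and are the exhausted groups of the labels. B78ChOVA is a mouse melanoma line that carries ovalbumin and mCherry. Effector cells had spent 5 days in culture with antigen, and naive cells were lymph node cells of tumour-free OT-I mice. The groups therefore differ in host and surroundings as well as in state, and these cannot be told apart here. The labels do not say that the replicates of a group came from separate animals or cultures, so the p-values measure the spread between these libraries, which may be technical.

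NF-kappaB factors are dimers of Rel-family proteins. In resting cells they are held in the cytoplasm by IkB proteins, and stimulation of the T cell receptor, of costimulatory receptors or of cytokine receptors leads to phosphorylation and degradation of the IkB proteins, so that the dimers reach the nucleus. Nfkb1 and Nfkb2 encode precursors that are processed to DNA-binding subunits without an activation domain, while Rel, Rela and Relb encode the subunits that have one. Several inhibitors, Nfkbia and Tnfaip3 among them, are known to be target genes of the factor that they restrain, and c-Rel, the product of Rel, is known for its part in the activation of lymphocytes.

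Promoter windows, from 250 bases before to 50 bases after a transcript start, are shown because the DNA motif of this family occurs in those of several of its own genes. RefSeq windows on GRCm38.p6 were at hand for 8 of the 10 genes, in 13 windows, but not for Nfkb1 and Relb. They were searched on both strands for the 10-base kappaB consensus, and the matches are in capitals. Where 2 matches overlap, the capitals run over both. Those printed belong to the 2 subunit genes and the 2 inhibitor genes with the largest range of group means, and where a gene had several windows, the one with the most matches is shown.
Nfkb2, chr19:46304487-46304786, plus strand: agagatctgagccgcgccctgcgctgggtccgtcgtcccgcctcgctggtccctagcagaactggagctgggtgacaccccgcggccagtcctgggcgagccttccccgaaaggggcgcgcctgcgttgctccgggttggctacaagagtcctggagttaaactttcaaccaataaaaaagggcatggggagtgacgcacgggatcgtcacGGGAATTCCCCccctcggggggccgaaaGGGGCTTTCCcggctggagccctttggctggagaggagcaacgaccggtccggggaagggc
Rel, chr11:23770920-23771219, minus strand: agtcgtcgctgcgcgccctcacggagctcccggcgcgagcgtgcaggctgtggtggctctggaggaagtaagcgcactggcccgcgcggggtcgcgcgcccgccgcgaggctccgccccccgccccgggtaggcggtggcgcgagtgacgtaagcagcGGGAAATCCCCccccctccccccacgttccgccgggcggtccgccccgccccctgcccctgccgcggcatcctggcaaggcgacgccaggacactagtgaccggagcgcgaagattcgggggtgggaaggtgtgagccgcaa
Tnfaip3, chr10:19015361-19015660, minus strand: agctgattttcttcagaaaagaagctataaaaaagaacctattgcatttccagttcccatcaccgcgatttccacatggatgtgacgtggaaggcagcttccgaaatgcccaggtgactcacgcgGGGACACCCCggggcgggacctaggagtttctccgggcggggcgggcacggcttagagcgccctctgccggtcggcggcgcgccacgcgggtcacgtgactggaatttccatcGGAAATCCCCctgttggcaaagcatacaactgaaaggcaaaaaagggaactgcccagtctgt
Nfkbia, chr12:55492598-55492897, minus strand: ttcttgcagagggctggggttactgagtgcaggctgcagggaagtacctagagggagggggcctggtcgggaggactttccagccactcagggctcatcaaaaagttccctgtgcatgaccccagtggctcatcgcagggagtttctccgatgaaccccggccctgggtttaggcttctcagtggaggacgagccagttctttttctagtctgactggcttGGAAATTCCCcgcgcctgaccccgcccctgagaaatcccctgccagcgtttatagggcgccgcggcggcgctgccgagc
In the Nfkb2 window GGGAATTCCC lay 39 bases before the start, overlapped by a second match 1 base further on, and GGGGCTTTCC lay 11 bases before it. The Rel window held GGGAAATCCC 92 bases before the start, again with an overlapping match. Tnfaip3 had GGGACACCCC at 125 bases and GGAAATCCCC at 12 bases before the start, and Nfkbia had GGAAATTCCC at 29 bases. Nfkbie held GGGGGATTCC in its window, 106 bases before the start, and 1 of the 3 windows of Nfkbid held GGGACTTCCC and GGAATTCCCC. No consensus match was in the windows of Rela and Nfkbib. In all, 8 of the 13 windows, belonging to 6 of the 8 genes, held a match. Of the 32851 windows of all genes, 4.51% held at least 1, 0.554% at least 2 and 0.0517% at least 3. These shares are per window, and a gene with several windows has more places for a match. Among the 8 windows, 2 of Nfkb2 that are not printed overlap and hold the same GGGACTTTCC. A match is a stretch of letters, not a site shown to be bound.

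Between 11937053 and 17094006 reads were counted on genes in each library, and a single one of the 10 genes had at most 34661 of them. The coefficient of variation between the 3 libraries of a group lay between 2.62% and 27.7%, with a median of 10.2%. Levels are given as CPM, the usual scaling of counts by library size, here corrected by the trimmed mean of M values (TMM). A gene is called higher or lower where edgeR's quasi-likelihood test gave an adjusted p under 0.05, with Benjamini-Hochberg adjustment over all 16426 genes. On average 23.8% of reads overlapped no annotated exon at day 14, 22.4% at day 4, 22.0% in effector libraries and 28.2% in naive libraries. Reads in introns are among these. The 6 CD8 T cell markers were present in all groups, with summed levels of 3281 to 3446 CPM at day 14, 2381 to 2871 CPM at day 4, 4530 to 4933 CPM in effector cells and 3716 to 4108 CPM in naive cells.

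Summed over markers, transcripts of tumour cells and of myeloid cells were higher in the tumour libraries. The summed level of 7 melanoma markers was 413.6 to 1608 CPM at day 14, 666 to 1003 CPM at day 4, 36.8 to 42.4 CPM in effector cells and 26.2 to 32.7 CPM in naive cells, with Tyr, Tyrp1 and Sox10 at 0 in effector cells. The 12 macrophage and monocyte markers summed to 30.0 to 54.3 CPM at day 14, 24.75 to 74.3 CPM at day 4, 2.71 to 6.62 CPM in effector cells and 11.25 to 21.1 CPM in naive cells. Of these, Fcgr1 and Cd14 were at 0 in effector and in naive cells, and C1qa, C1qb, C1qc and Ms4a7 were at 0 in effector cells. Csf1r had 3.99, 2.47 and 0.536 CPM in naive cells. It overlapped with day 4 (0.88, 0.961 and 4.61 CPM) and day 14 (1.25, 0.71 and 3.21 CPM). Lyz2 of naive replicate 2, 3.345 CPM, lay above replicate 2 of day 14 (3.057 CPM) and of day 4 (2.283 CPM), and below the other tumour libraries. Cd68 alone had 15.99 of the 30.0 CPM in day 14 replicate 2. It had 17.78 of the 24.75 CPM in day 4 replicate 2, but 21.45 of 74.3 CPM in day 4 replicate 3. The 6 dendritic cell markers summed to 31.0 to 49.1 CPM at day 14, 34.3 to 52.8 CPM at day 4, 7.84 to 17.0 CPM in effector cells and 4.82 to 6.29 CPM in naive cells, with Clec9a and Siglech at 0 in effector cells. The 5 fibroblast markers summed to 7.0 to 17.9 CPM at day 14, 1.25 to 23.1 CPM at day 4, 0.258 to 1.08 CPM in effector cells and 0.23 to 1.33 CPM in naive cells, so that day 4 overlapped with naive cells, with Pdgfra at 0 in effector and naive cells, Dcn at 0 in effector cells and Col1a2 at 0 in naive cells. Other lists went the other way or overlapped. The 6 B cell markers summed to 1.71 to 4.82 CPM at day 14, 3.88 to 7.09 CPM at day 4, 8.34 to 13.4 CPM in effector cells and 18.1 to 22.1 CPM in naive cells. The 4 endothelial markers summed to 41.7 to 56.5, 62.0 to 81.0, 177 to 187 and 178 to 198 CPM in the same order. Sums of the 4 CD4 T cell and Treg markers overlapped between tumour and naive libraries. The part of all these transcripts in the differences between tumour cells and the other groups was not tested. Within day 14, the library with the most melanoma transcripts, replicate 1 at 1608 CPM, had 966 CPM of Rel and 2288 CPM of Tnfaip3. Replicate 3, with the fewest at 413.6 CPM, had 1037 CPM of Rel and 2025 CPM of Tnfaip3. Replicate 2, at 671.1 CPM, had the least of both genes, 694 CPM of Rel and 1826 CPM of Tnfaip3. Its macrophage and monocyte sum was also the lowest of day 14, 30.0 CPM beside 54.3 and 53.7 CPM in replicates 1 and 3. Without day 14 replicate 1 the log2 fold changes of day 14 over naive were 2.98 for Rel and 5.08 for Tnfaip3. Without replicate 2 they were 3.19 and 5.23. Whether these levels go together was not tested.

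Nearly all of the 10 genes stood higher in T cells from tumours than in naive cells. At day 14, 9 of the 10 genes were called higher than in naive cells, where 62.1% of all genes tested were called and 33.6% were called higher. At day 4, 10 of 10 were called higher, where 62.2% of all genes were called and 33.4% were called higher. All 3 day 14 libraries lay above all naive libraries in 8 genes, as in 36.4% of all genes tested, and all day 4 libraries did so in 9, as in 36.1% of all genes. An F test over the 4 groups called 10 of 10 genes, where 74.8% of all genes were called. The median log2 fold change of the 10 genes was 1.59 for day 14 over naive, beside 0.04 for all genes tested, and 1.87 for day 4 over naive, beside 0.03. Day 4 was the group with the highest mean for 8 of the 10 genes, as it was for 26.8% of all genes tested, and naive was the lowest for 8, as it was for 27.5% of all genes. The exceptions at the top were Tnfaip3, highest at day 14, and Rela, highest in effector cells. In bulk samples, fewer cells of a type that express a gene and less RNA of it per cell cannot be told apart.

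**Figure D1:**
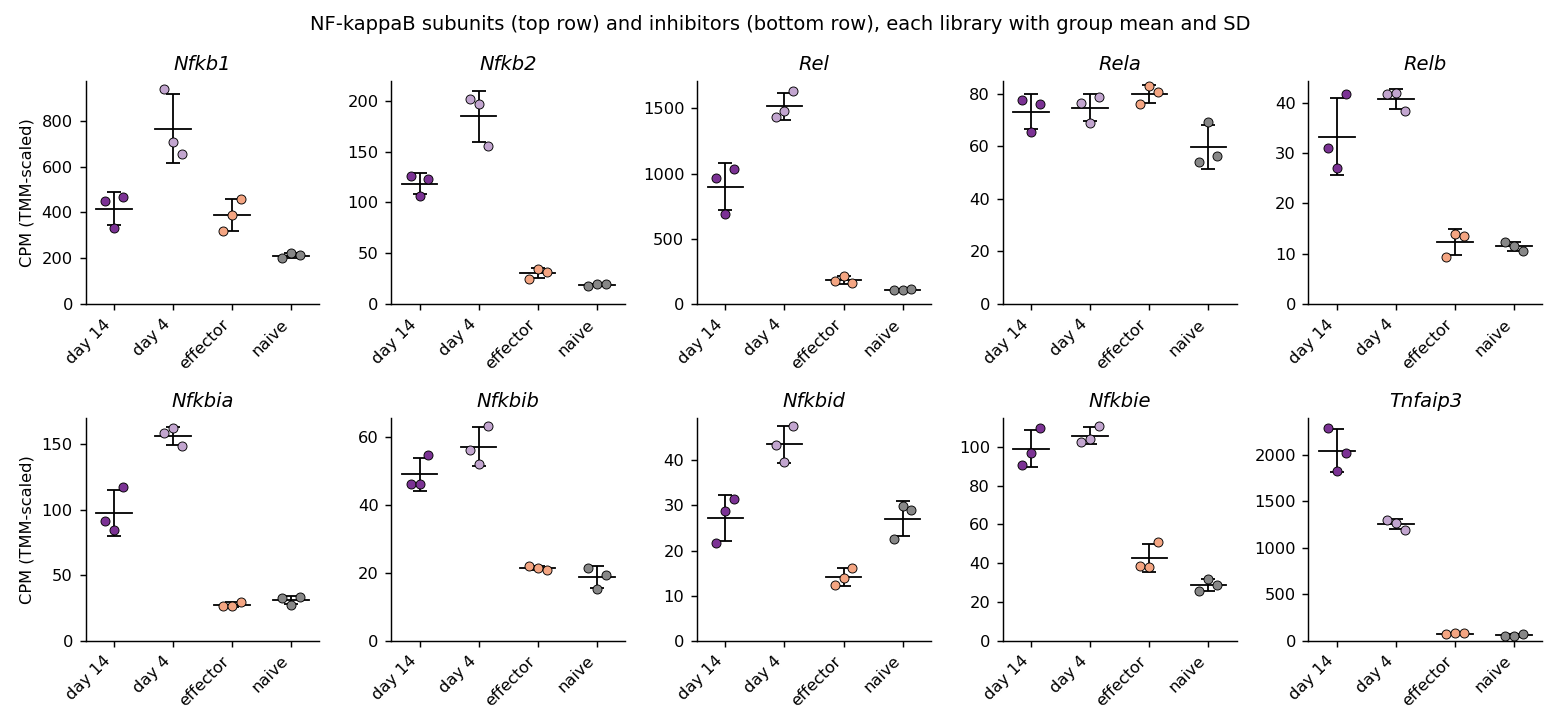
Level of each of the 10 genes in every library, as TMM-scaled CPM on linear axes from 0, by group from day 14 to naive cells; points are libraries, and bars give the mean and SD of 3. Rel and Tnfaip3 stand far above naive cells in all 6 tumour libraries, while the tumour libraries of Rela overlap with those of naive cells.

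Among the subunits, Rel (ENSMUSG00000020275.9, GRCm38 chr11:23736847-23770970, minus strand), which encodes c-Rel, differed most. It had 966, 694 and 1037 CPM at day 14, 1433, 1482 and 1633 CPM at day 4, 180, 213 and 159 CPM in effector cells, and 106, 110 and 114 CPM in naive cells. No library of one group overlapped with those of another. The level at day 4 was 13.8-fold that in naive cells (3.78 ± 0.15 SE on the log2 scale, edgeR adjusted p = 2.27e-11), and at day 14 it was 8.16-fold (3.03 ± 0.14, edgeR adjusted p = 1.4e-10). Effector cells exceeded naive cells by a much smaller margin, 1.67-fold (0.74 ± 0.13, edgeR adjusted p = 0.000881).

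Nfkb2 (ENSMUSG00000025225.15, chr19:46304320-46312385, plus strand) encodes the precursor of the non-canonical branch, which is processed to its DNA-binding subunit when NIK is active. Its libraries had 126, 107 and 123 CPM at day 14, 202, 197 and 156 CPM at day 4, 24.8, 34.8 and 31.9 CPM in effector cells, and 18.0, 19.4 and 19.9 CPM in naive cells. The groups did not overlap, in the same order as for Rel. The level was 6.21-fold that of naive cells at day 14 (2.63 ± 0.14 SE on the log2 scale, edgeR adjusted p = 1.27e-10) and 9.67-fold at day 4 (3.27 ± 0.14, edgeR adjusted p = 1.66e-11). Its exons share 531 bases with a lncRNA, AC114539.1, and 299 bases with Psd, both on the other strand. The libraries do not mark strand, and reads that overlap exons of 2 genes were set apart as ambiguous and counted for neither. Reads of these stretches are therefore missing from the counts of Nfkb2, and its level per length may be too low. The counts of AC114539.1, 1882 over all 12 libraries, and of Psd, 4193, leave such reads out too.

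Nfkb1 (ENSMUSG00000028163.17, chr3:135584655-135691547, minus strand), which encodes the precursor of the other DNA-binding subunit, had 448, 332 and 467 CPM at day 14, 937, 706 and 653 CPM at day 4, 321, 389 and 458 CPM in effector cells, and 199, 221 and 214 CPM in naive cells. Day 14 and effector libraries overlapped and did not differ by the test (log2 fold change 0.10, 95% interval -0.22 to 0.41, edgeR adjusted p = 0.63). Naive libraries lay below all others. Against naive cells the log2 fold change was 0.98 ± 0.16 SE at day 14, 1.86 ± 0.17 at day 4 and 0.88 ± 0.16 in effector cells, with edgeR adjusted p of 0.000172, 5.82e-07 and 0.00163. In linear terms Nfkb1 was 1.97-fold the naive level at day 14 and 1.84-fold in effector cells, where Nfkb2 was 6.21-fold and 1.60-fold.

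Relb (ENSMUSG00000002983.17, chr7:19606217-19629438, minus strand), whose product pairs mostly with that of Nfkb2, was the subunit with the lowest level. Day 14 libraries had 31.0, 27.1 and 41.8 CPM, day 4 libraries 41.8, 41.9 and 38.4 CPM, effector libraries 9.27, 13.8 and 13.6 CPM, and naive libraries 12.3, 11.6 and 10.6 CPM. All 6 tumour libraries lay above all others, whereas effector and naive libraries overlapped. The level was 2.90-fold that in naive cells at day 14 (1.53 ± 0.18 SE on the log2 scale, edgeR adjusted p = 2.03e-06) and 3.54-fold at day 4 (1.82 ± 0.18, edgeR adjusted p = 2.88e-07). Effector over naive was 0.09, with a 95% interval from -0.28 to 0.46 (edgeR adjusted p = 0.779).

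Rela (ENSMUSG00000024927.8, chr19:5637483-5648130, plus strand), which encodes p65, the activating subunit of the most common dimer, was nearly level. It had 77.5, 65.4 and 76.1 CPM at day 14, 76.6, 68.7 and 78.6 CPM at day 4, 76.1, 82.7 and 80.5 CPM in effector cells, and 53.9, 69.3 and 56.1 CPM in naive cells. Naive replicate 2 overlapped with both tumour groups but lay below all effector libraries. The calls against naive cells were small, with log2 fold changes of 0.29 ± 0.11 SE at day 14, 0.32 ± 0.11 at day 4 and 0.42 ± 0.11 in effector cells, and with edgeR adjusted p of 0.0311, 0.0182 and 0.0111. They did not hold in every alternative. At day 14 the call was lost with total counts as scaling, with the 2 groups fitted alone and without naive replicate 1 or 3 or day 14 replicate 1 or 3, where the adjusted p went up to 0.128. At day 4 it was lost without naive replicate 1 or 3 or day 4 replicate 3 (up to 0.0755), and in effector cells with total counts (0.0707) or without naive replicate 1 (0.0572). Between the other groups Rela did not pass the test: the log2 fold change was -0.03 for day 14 over day 4, with a 95% interval from -0.25 to 0.18 (edgeR adjusted p = 0.918).

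**Figure D2:**
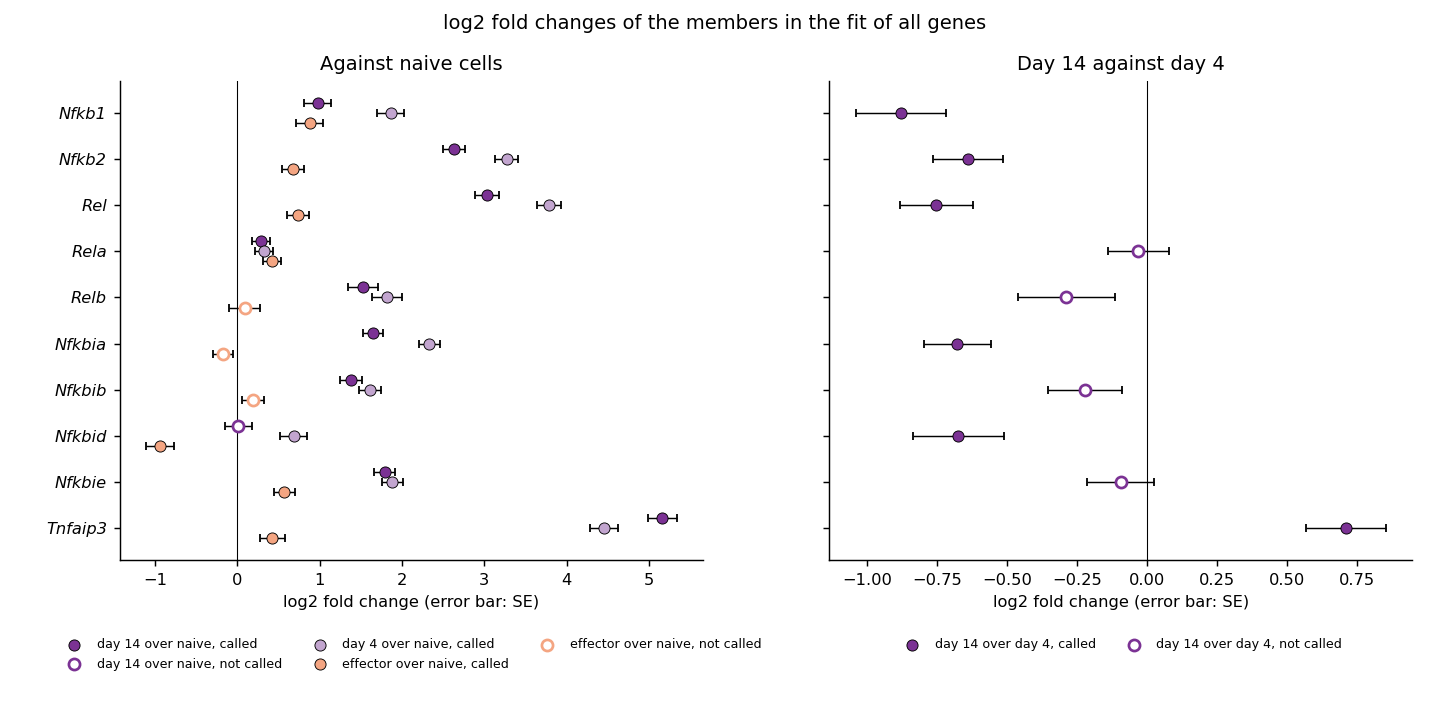
log2 fold changes from the edgeR fit of all genes, with SE as error bars; filled points passed an adjusted p under 0.05 and open points did not. On the left each gene is set against naive cells, with Tnfaip3 at 5.16 for day 14 and Nfkbid at -0.94 for effector cells, and on the right day 14 is set against day 4, where Tnfaip3 alone lies above 0 among the called genes.

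Tnfaip3 (ENSMUSG00000019850.11, chr10:19000910-19015657, minus strand) had the largest fold change of the 10 genes. It encodes a ubiquitin-editing enzyme that shuts off signalling upstream of the IkB kinases. The libraries had 2288, 1826 and 2025 CPM at day 14, 1297, 1265 and 1193 CPM at day 4, 71.7, 80.5 and 78.8 CPM in effector cells, and 47.1, 49.2 and 75.6 CPM in naive cells. The tumour libraries lay more than an order of magnitude above all others, and day 14 lay above day 4 without overlap. The level was 35.7-fold that of naive cells at day 14 (5.16 ± 0.17 SE on the log2 scale, edgeR adjusted p = 1.54e-11) and 21.8-fold at day 4 (4.45 ± 0.17, edgeR adjusted p = 4.01e-11). Effector over naive was 1.34-fold (0.43 ± 0.15, edgeR adjusted p = 0.049). The effector libraries overlapped with naive replicate 3, and that call was lost in 15 of 18 alternatives, with adjusted p from 0.000104 to 0.171 over all 18.

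Nfkbia (ENSMUSG00000021025.8, chr12:55489410-55492647, minus strand) encodes IkB-alpha, the inhibitor that is degraded first on stimulation and made anew by the factor it binds. It had 91.0, 84.4 and 117 CPM at day 14, 158, 162 and 148 CPM at day 4, 26.5, 26.3 and 29.9 CPM in effector cells, and 32.5, 27.4 and 33.4 CPM in naive cells. Day 4 lay above day 14 and both lay above the other groups, which overlapped with each other. The fold over naive cells was 3.13 at day 14 (1.65 ± 0.12 SE on the log2 scale, edgeR adjusted p = 9.43e-09) and 5.01 at day 4 (2.33 ± 0.13, edgeR adjusted p = 2.01e-10). Effector over naive was -0.17, with a 95% interval from -0.42 to 0.07 (edgeR adjusted p = 0.339).

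Nfkbie (ENSMUSG00000023947.8, chr17:45555703-45563169, plus strand) encodes IkB-epsilon, which binds dimers that contain c-Rel or p65. Its levels were 90.6, 96.9 and 110 CPM at day 14, 103, 104 and 111 CPM at day 4, 38.5, 38.1 and 51.1 CPM in effector cells, and 25.4, 31.9 and 28.8 CPM in naive cells. Day 14 and day 4 overlapped, effector cells lay between them and naive cells, and naive cells were the lowest without overlap. The log2 fold change over naive cells was 1.79 ± 0.13 SE at day 14, 1.88 ± 0.13 at day 4 and 0.57 ± 0.13 in effector cells, with edgeR adjusted p of 4.95e-09, 2.61e-09 and 0.0035.

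Nfkbib (ENSMUSG00000030595.15, chr7:28758251-28767512, minus strand), which encodes IkB-beta, had 46.1, 46.1 and 54.5 CPM at day 14, 56.0, 52.0 and 63.2 CPM at day 4, 21.9, 21.4 and 20.8 CPM in effector cells, and 21.5, 15.3 and 19.4 CPM in naive cells. The 6 tumour libraries lay above all others, and effector and naive libraries overlapped. The log2 fold change over naive cells was 1.38 ± 0.14 SE at day 14 (edgeR adjusted p = 2.63e-07) and 1.61 ± 0.14 at day 4 (edgeR adjusted p = 4.54e-08), while effector over naive was 0.19, with a 95% interval from -0.08 to 0.46 (edgeR adjusted p = 0.351). Exons of Nfkbib share 314 bases with Ccer2 and 42 bases with Sirt2 on the other strand, and Sirt2 had 13886 counts over the 12 libraries. As for Nfkb2, reads of the shared stretches were ambiguous and are in none of these counts.

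Nfkbid (ENSMUSG00000036931.15, chr7:30421732-30428746, plus strand) encodes a nuclear IkB protein that acts on DNA-bound dimers and is known for its part in the transcription of Il2 in T cells. It had 21.6, 28.7 and 31.5 CPM at day 14, 43.4, 39.6 and 47.7 CPM at day 4, 12.4, 13.9 and 16.2 CPM in effector cells, and 22.5, 29.8 and 29.0 CPM in naive cells. It was the 1 gene of the 10 called lower in effector than in naive cells, 0.522-fold (a log2 fold change of -0.94 ± 0.17 SE, edgeR adjusted p = 0.000713), with no overlap. Day 4 lay above all other libraries and was 1.61-fold the naive level (0.68 ± 0.16, edgeR adjusted p = 0.00168). Day 14 and naive libraries overlapped, with a log2 fold change of 0.01 and a 95% interval from -0.31 to 0.33 (edgeR adjusted p = 0.962), and the sign of that difference turned in 4 of 18 alternatives.

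Levels of different genes can be compared only per length, as CPM per kilobase of exon. The length is that of all annotated exons of a gene merged, 12061 bases for Nfkb1 and 7466 for Rel. It can exceed the length of the transcripts present, and the shares and the order of genes depend on it. On this scale the order of the subunits differed between the groups. Rel averaged 120 ± 24.3 CPM per kilobase at day 14, 203 ± 14.0 at day 4, 24.6 ± 3.64 in effector cells and 14.7 ± 0.58 in naive cells (SD, n = 3 each). Rela averaged 23.8 ± 2.16 CPM per kilobase at day 14, 24.3 ± 1.69 at day 4, 26.0 ± 1.11 in effector cells and 19.5 ± 2.71 in naive cells. Rel thus stood far above Rela in both tumour groups, the 2 did not differ beyond their spread in effector cells, and Rela stood above Rel in naive cells. Taken within each library, which frees the ratio from the scaling between libraries, Rel was 5.03 ± 0.62 times Rela at day 14, 8.37 ± 0.61 times at day 4, 0.95 ± 0.12 times in effector cells and 0.77 ± 0.10 times in naive cells.

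The 5 subunits together had 213 ± 36.1 CPM per kilobase at day 14, 341.5 ± 8.11 at day 4, 92.7 ± 8.33 in effector cells and 58.9 ± 3.83 in naive cells. Rel made up 56.3% ± 2.0 of this sum at day 14, 59.5% ± 4.5 at day 4, 26.7% ± 3.8 in effector cells and 25.1% ± 1.5 in naive cells. Rela made up 11.3% ± 1.0 at day 14, 7.11% ± 0.38 at day 4, 28.1% ± 1.4 in effector cells and 33.0% ± 2.5 in naive cells. With merged exons as the length, Rel thus made up most of this sum in tumour cells. Nfkb1 made up 16.2% ± 0.17 at day 14, 18.5% ± 3.3 at day 4, 34.7% ± 4.2 in effector cells and 29.8% ± 0.59 in naive cells. The share of Nfkb2 was 12.3% ± 1.2 at day 14, 11.8% ± 1.6 at day 4, 7.15% ± 0.60 in effector cells and 7.09% ± 0.35 in naive cells. Relb made up 3.07% to 5.04% of the sum in all groups. Between the precursors, Nfkb2 was 0.76 ± 0.08 times Nfkb1 per length at day 14, 0.64 ± 0.09 times at day 4, 0.21 ± 0.03 times in effector cells and 0.24 ± 0.01 times in naive cells.

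The 2 inhibitors with the largest fold changes also changed places between groups. Tnfaip3 was the most abundant of the 10 genes per length at day 14, with 283 ± 32.1 CPM per kilobase, followed by Rel and by Nfkbia at 60.6 ± 10.7. At day 4 Rel led with 203 ± 14.0, before Tnfaip3 with 173 ± 7.36 and Nfkbia with 96.9 ± 4.41. In effector cells Nfkb1 led with 32.3 ± 5.68, before Rela and Rel. In naive cells Rela, at 19.5 ± 2.71, and Nfkbia, at 19.3 ± 2.02, did not differ beyond their spread, and Tnfaip3 came in 8th place of 10 with 7.93 ± 2.20. Within a library, Tnfaip3 was 4.76 ± 0.88 times Nfkbia per length at day 14, 1.79 ± 0.04 times at day 4, 0.62 ± 0.05 times in effector cells and 0.41 ± 0.09 times in naive cells. Lower in the order at day 14, Nfkb1 with 34.5 ± 6.05 and Nfkbie with 32.5 ± 3.18 were not apart beyond their spread, nor were Nfkb2, Rela and Nfkbib, which lay between 22.6 and 25.9. Relb was last in every group, at 8.57 ± 1.96 CPM per kilobase at day 14, 10.5 ± 0.51 at day 4, 3.15 ± 0.66 in effector cells and 2.96 ± 0.22 in naive cells.

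Between the 2 times in the tumour, most genes that changed were lower at day 14, and Tnfaip3 went the other way. Of the 10 genes, 5 were called lower at day 14 than at day 4 and 1 higher, where 12.1% of all genes tested were called, 4.91% lower and 7.17% higher. The median log2 fold change of the 10 was -0.465, beside -0.0039 for all genes. The 3 subunits called lower were Nfkb1 (-0.88 ± 0.16 SE, edgeR adjusted p = 0.00303), Rel (-0.75 ± 0.13, edgeR adjusted p = 0.0013) and Nfkb2 (-0.64 ± 0.12, edgeR adjusted p = 0.00247). Nfkbia (-0.68 ± 0.12, edgeR adjusted p = 0.00104) and Nfkbid (-0.67 ± 0.16, edgeR adjusted p = 0.0111) were the 2 inhibitors called lower. In each of these 5 genes all 3 day 14 libraries lay below all 3 day 4 libraries, which was so for 14.1% of all genes, while all day 14 libraries lay above day 4 for Tnfaip3, as for 16.5% of all genes. Tnfaip3 was 1.64-fold higher at day 14 (log2 fold change 0.71 ± 0.14 SE, edgeR adjusted p = 0.00439). Relb, Rela, Nfkbib and Nfkbie did not pass the test, with edgeR adjusted p from 0.333 to 0.918. The call of Nfkbid was lost without day 14 replicate 1 (edgeR adjusted p = 0.0543), and the count over all genes, 1984, was 1283 without day 14 replicate 2.

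Against cultured effector cells, which have also met antigen, most of the 10 genes were higher in tumour cells too. At day 14, 8 of the 10 genes were called higher, where 61% of all genes were called and 32.6% were called higher. At day 4, 9 of the 10 were called higher, where 61.9% of all genes were called and 32.7% higher. The libraries of the same genes lay above all effector libraries, 8 at day 14, as in 35.4% of all genes, and 9 at day 4, as in 35.7% of all genes. Rela was not called in either comparison, and Nfkb1 was not called at day 14. Tnfaip3 was 26.6-fold higher at day 14 (log2 fold change 4.73 ± 0.17 SE) and 16.3-fold higher at day 4 (4.02 ± 0.16), with edgeR adjusted p of 2.71e-11 and 8.2e-11. The corresponding folds of Rel were 4.88 at day 14 and 8.24 at day 4, those of Nfkb2 3.89 and 6.06, and those of Nfkbia 3.54 and 5.66. These comparisons share libraries with those against naive cells and are no separate evidence.

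Between effector and naive cells the fold changes were smaller. Of the 10 genes, 6 were called higher (Nfkb1, Nfkb2, Rel, Rela, Nfkbie and Tnfaip3) and Nfkbid lower, where 24.9% of all genes were called, 14.6% higher and 10.4% lower, and 18.2% had all effector libraries below all naive ones, as Nfkbid did. With total counts as scaling, 1544 genes over the whole table were called higher and 2508 lower, against 2395 and 1703 with TMM, and the median of all genes then lay at -0.10. Under that scaling Tnfaip3 (edgeR adjusted p = 0.161) and Rela (0.0707) lost their calls. The largest fold change upwards was that of Nfkb1, 1.84-fold, and all effector libraries of Nfkb1, Nfkb2, Rel, Rela and Nfkbie lay above all naive libraries, as was so for 22% of all genes.

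The rest of the pathway did not move as a block. Its genes were taken from 7 lists of known components, 83 genes of which 81 were tested. Their counts stand beside 33.6% of all genes called higher and 28.5% called lower at day 14 against naive cells, and 33.4% higher and 28.8% lower at day 4. The median log2 fold change over naive cells at day 14 was -0.23 for the IkB kinases and their regulators and 0.26 for TRAF proteins and cIAPs. It was -0.48 for the 5 genes given of the branch from the T cell receptor. For other ubiquitin-editing regulators it was 0.28, for IkB-like proteins and the repressor Nkrf 0.68, for receptors 3.21 and for target genes 1.83. Several IkB kinase genes were lower in tumour cells. Of 10 genes, Ikbkb, Ikbke, Map3k14 and Ikbkg fell at day 14 against naive cells, and Chuk and Tab2, named after their values were seen, rose. At day 4 those 4 and Tbk1 fell and none rose. Ikbkb, a catalytic subunit of the kinase complex, averaged 196 ± 13.0 CPM at day 14, 171 ± 6.75 CPM at day 4, 542 ± 40.6 CPM in effector cells and 683 ± 40.6 CPM in naive cells, a log2 fold change over naive cells of -1.80 at day 14 (edgeR adjusted p = 4.97e-11) and -2.0 at day 4 (edgeR adjusted p = 2.02e-11). Ikbke, a related kinase, averaged 69.8 ± 5.53 CPM at day 14, 94.5 ± 10.3 CPM at day 4, 293 ± 23.4 CPM in effector cells and 289 ± 32.1 CPM in naive cells. Ikbkg, the regulatory subunit, and Map3k14, which encodes NIK, fell by 1.03 and 1.01 on the log2 scale at day 14 (edgeR adjusted p = 9.51e-07 and 3.3e-06).

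Other genes of the branch that runs from the T cell receptor to these kinases differed in direction. At day 14 against naive cells, Prkcq, Carmil2 and Prkcb fell and Bcl10 and Malt1 rose. At day 4 Bcl10 rose and Prkcq, Carmil2, Malt1 and Prkcb fell. Prkcq, the protein kinase C of the T cell synapse, averaged 131 ± 18.9 CPM at day 14, 140 ± 9.85 CPM at day 4, 467 ± 36.1 CPM in effector cells and 475 ± 9.71 CPM in naive cells. Bcl10, an adaptor of this branch, averaged 57.1 ± 10.2 CPM at day 14, 81.2 ± 7.73 CPM at day 4, 43.5 ± 5.25 CPM in effector cells and 42.0 ± 4.27 CPM in naive cells. Against day 4, Malt1 was called higher at day 14 and Bcl10 lower. Prkcb and Malt1 are named after their values were seen.

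Among 10 TRAF proteins, cIAPs and their partners, 5 rose at day 14 (Birc2, Birc3, Traf1, Traf2 and Traf3) and Traf3ip2 fell. Over all genes 62.1% were called and 33.6% were called higher. At day 4 Birc2, Birc3 and Traf1 rose and Traf3ip2, Tradd and Ripk1 fell, where 33.4% of all genes rose and 28.8% fell. Traf2, Traf3, Tradd and Ripk1 are named after their values were seen. Birc2, which encodes cIAP1, averaged 541 ± 16.5 CPM at day 14, 397 ± 6.66 CPM at day 4, 239 ± 18.8 CPM in effector cells and 167 ± 7.60 CPM in naive cells, and was called higher at day 14 than at day 4 (log2 fold change 0.45, edgeR adjusted p = 0.001). Birc3 went the other way between those groups (-0.42, edgeR adjusted p = 0.011). Traf1, a target gene that encodes an adaptor of the TNF receptor family, averaged 205 ± 19.2 CPM at day 14, 248 ± 4.13 CPM at day 4, 437 ± 16.5 CPM in effector cells and 142 ± 28.7 CPM in naive cells. Of the 13 other ubiquitin-editing regulators, 7 rose at day 14 against naive cells, where 33.6% of all genes rose, and Rnf31, Rbck1, Sharpin and Itch fell, where 28.5% of all genes fell. At day 4 Tnip1, Tnip2, Tnip3, Rnf11 and Otud7b rose and Rnf31, Rbck1, Sharpin, Cyld and Itch fell, of which the Tnip genes, Sharpin, Cyld and Itch are named after their values were seen. Rnf31 and Rbck1, which encode parts of the linear ubiquitin ligase, fell by 0.81 and 0.58 on the log2 scale at day 14 (edgeR adjusted p = 2.89e-06 and 2.47e-05), and Otud7b, a relative of Tnfaip3 among the deubiquitinases, rose by 0.67 (edgeR adjusted p = 0.000192).

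A list of 4 genes outside the 10 held IkB-like genes and Nkrf, which encodes a repressor that is not an IkB protein. Of these, Nfkbiz, Nkrf and Nfkbil1 rose at day 14 against naive cells, and Nfkbiz and Nkrf at day 4. Nfkbiz, which encodes a nuclear IkB protein like that of Nfkbid, averaged 147 ± 40.9 CPM at day 14, 232 ± 13.5 CPM at day 4, 38.6 ± 11.1 CPM in effector cells and 101 ± 9.34 CPM in naive cells. Its effector level was called lower than naive, as that of Nfkbid was (log2 fold change -1.38, edgeR adjusted p = 0.000706). Bcl3, another nuclear IkB protein, averaged 32.1 ± 2.98 CPM at day 14, 26.1 ± 3.18 CPM at day 4, 28.6 ± 11.9 CPM in effector cells and 26.6 ± 14.6 CPM in naive cells and was not called in any of these comparisons.

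Receptors that signal to NF-kappaB and target genes of the factor were mostly higher in tumour cells. Of 17 receptors 15 were tested, of which 10 rose at day 14 and 10 at day 4, where 33.6% and 33.4% of all genes rose. Tnfrsf25 and Cd27 fell at both times and Tnfrsf1a at day 4, all 3 named after their values were seen. Among those that rose were Ltbr (log2 fold change of day 14 over naive 5.58 ± 1.06 SE) and Tlr4 (5.72 ± 0.89), also named after their values were seen. Melanoma and myeloid markers, as sums, were higher in the tumour libraries, and the part of such cells in these receptor counts was not tested. Among receptors with a mean log2 CPM of at least 4, the largest range was that of Tnfrsf9, the costimulatory receptor 4-1BB, with 423 ± 35.1 CPM at day 14, 402 ± 21.6 CPM at day 4, 6.28 ± 0.53 CPM in effector cells and 2.76 ± 0.97 CPM in naive cells. Tnfrsf4, which encodes OX40, averaged 168 ± 9.75 CPM at day 14, 204 ± 5.98 CPM at day 4, 6.88 ± 0.99 CPM in effector cells and 4.34 ± 1.17 CPM in naive cells. Tnfrsf1b, a receptor for TNF, was called higher at day 14 than at day 4 (log2 fold change 0.58, edgeR adjusted p = 0.00674), with 423 ± 11.1 CPM at day 14, 283 ± 33.6 CPM at day 4, 64.2 ± 14.1 CPM in effector cells and 32.5 ± 3.39 CPM in naive cells. In all 3 receptors the effector mean lay nearer to the naive mean than to those of the tumour groups.

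Of 23 known target genes, 14 rose at day 14 against naive cells and 17 at day 4, where 33.6% and 33.4% of all genes rose. Ltb, Cflar and Ccnd2 fell at both times and Myc at day 14, of which all but Ltb are named after their values were seen. Cd83, an activation marker, averaged 74.9 ± 38.3 CPM at day 14, 377 ± 36.7 CPM at day 4, 3.42 ± 2.54 CPM in effector cells and 2.32 ± 0.93 CPM in naive cells, and fell by 2.33 on the log2 scale at day 14 relative to day 4 (edgeR adjusted p = 0.00917). Il2ra, the alpha chain of the interleukin-2 receptor, was high in effector cells too, with 212 ± 63.6 CPM at day 14, 282 ± 17.4 CPM at day 4, 161 ± 51.9 CPM in effector cells and 1.47 ± 0.44 CPM in naive cells. Ltb, which encodes lymphotoxin beta, went against the list, with 35.5 ± 1.61 CPM at day 14, 29.0 ± 3.90 CPM at day 4, 156 ± 3.48 CPM in effector cells and 79.7 ± 8.05 CPM in naive cells. It fell by 1.17 on the log2 scale at day 14 and by 1.46 at day 4 (edgeR adjusted p = 1.15e-07 and 8.77e-09). Several of these target genes, Cd83 among them, are also expressed by myeloid cells. The summed markers of such cells (macrophage, monocyte and dendritic cell) were higher in the tumour libraries. The part of myeloid cells in these values was not tested.

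**Figure D3:**
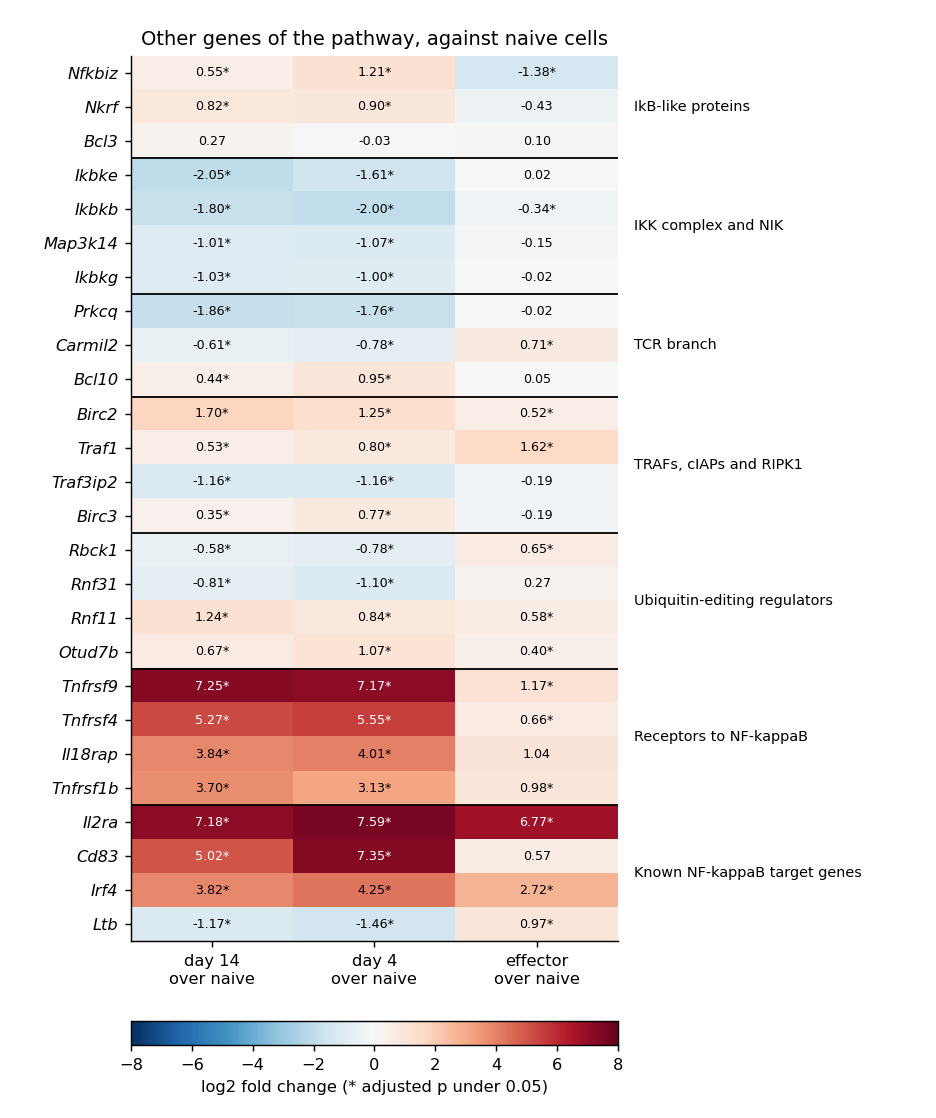
log2 fold changes over naive cells (colour and number) of named genes of the 7 pathway lists, in columns from day 14 to effector cells; an asterisk marks an edgeR adjusted p under 0.05. Tnfrsf9, Tnfrsf4, Il2ra and Cd83 lie far above naive cells in both tumour groups, while Ikbkb, Ikbke and Prkcq lie below.

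The genes whose levels ran most like those of the 3 members with the largest range were found by the Euclidean distance between log2 CPM, centred on each gene's mean, over the 12 libraries, among 6749 protein-coding genes with a mean log2 CPM of at least 4, as a description. Nearest to Tnfaip3 were Crem (distance 0.99), Sik1 (1.16) and Junb (1.31). Crem averaged 200 ± 39.1 CPM at day 14, 135 ± 41.0 CPM at day 4, 9.68 ± 0.31 CPM in effector cells and 7.26 ± 1.81 CPM in naive cells. Among the nearest to Rel were Hivep3 (0.94) and Rrm1 (1.20), and Hivep3 averaged 184.5 ± 39.5 CPM at day 14, 391 ± 40.2 CPM at day 4, 31.9 ± 1.67 CPM in effector cells and 25.8 ± 5.73 CPM in naive cells. Nearest to Nfkb2 were Tgif1 (0.75), Pgk1 (0.80) and Hells (0.86). Tgif1 averaged 147 ± 23.3 CPM at day 14, 238 ± 28.2 CPM at day 4, 46.5 ± 3.19 CPM in effector cells and 29.4 ± 3.26 CPM in naive cells.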

How the data were processed

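The deposited values were counts of reads per gene, 1 table per library, with an unstranded column and 1 column per strand. Per the submitters' processing notes, fastp 0.19.6 and STAR 2.6.1b were used with the GRCm38 build. The deposited values have the layout of STAR's gene counts. These take reads on exons of 1 gene and set multimapping and ambiguous reads apart. The annotation release is not given in the sources used here. Per the labels' protocols, cells were sorted into lysis buffer, polyadenylated RNA was bound to beads, and its cDNA was amplified and tagmented. No molecular identifiers are described, so counts are not independent molecules. Between 49.8% and 49.9% of stranded counts fell on the first strand column, so the unstranded counts were used. The 4 summary lines were left out of library sizes, and 55141 of 55401 identifiers matched GENCODE M21 (GRCm38), which gave symbols, coordinates and exon lengths.

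Genes were filtered with filterByExpr and tested with edgeR 4.0.16 in R 4.3.3 (TMM, robust glmQLFit, glmQLFTest), with all 12 libraries in 1 fit, 8 residual degrees of freedom and 6 comparisons. Log2 CPM used a prior count of 2. The fit was also run on counts simulated with the mean levels and spreads of these data. The simulated libraries were independent, so that run says nothing on technical replicates or on transcripts of other cells. Alternatives were other scalings, DESeq2 1.42.0, no filter, the compared groups alone, a replicate block and leaving out each library. The 10 genes, the pathway lists and the rules were chosen with earlier results of these data known. At most 4 genes per list are named, those with the largest range of group means among genes with a mean log2 CPM of at least 4, plus Bcl3 and Nfkbiz; some genes that these rules pick are not reported here. Same-numbered libraries of different groups deviated together in 1 of 18 pairs (r above 0.1), so numbers were not taken to pair the samples.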

Additional observations from a re-analysis of the deposited data

How the results depend on the processing

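The 10 genes in 6 comparisons gave 60 differences, each computed under 18 alternatives. Of the 49 called, 44 kept their call and direction under each of the 18. The exceptions were the 3 differences of Rela against naive cells, Nfkbid at day 14 against day 4, and Tnfaip3 in effector against naive cells, as given above, and none of them turned its sign. Of the 11 not called, 7 stayed so with the same sign under each alternative, and 4 changed sign without a call. The log2 fold change of Nfkbid at day 14 over naive was -0.069 with total counts as scaling, -0.103 without naive replicate 1, -0.027 without day 14 replicate 2 and -0.0999 without day 14 replicate 3, with a range of -0.103 to 0.16 when 1 library was left out. That of Relb in effector over naive cells was -0.052 with total counts, -0.0026 without effector replicate 2 and -0.0304 without effector replicate 3, with a highest value of 0.221 without effector replicate 1. With 1 library left out, Rela ran from -0.102 to 0.024 for day 14 over day 4, positive without day 14 replicate 2, and from -0.104 to 0.012 for day 4 over effector, positive without day 4 replicate 2. The cause was not tested.

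Over all genes, the count for day 14 against day 4 was 1984, with 1283 to 2206 when 1 library was left out and 1283 without day 14 replicate 2. It was 2409 with no filter and 2440 with DESeq2. Leaving out 1 library moved the number of the 10 genes called from 5 to 7 for effector against naive, 8 to 9 for day 14 against naive, 9 to 10 for day 4 against naive and 5 to 6 for day 14 against day 4, and kept 8 for day 14 and 9 for day 4 against effector. With the replicate number as a block, 6 of the 10 genes were called for effector against naive cells, since Tnfaip3 had an edgeR adjusted p of 0.0527, and 3933 genes in all. In the other comparisons the block changed no call of the 10 genes. Of the 12 libraries, 4 correlated best with one of their own number, with r from -0.0884 to 0.1015 over same-numbered pairs. Relb, with 129 counts in its lowest library, is the gene most limited by depth.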
